A study of Mus musculus with 64 samples.

Results

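Loss of the Roquin paralogs and loss of Regnase-1 were set against their combined loss in mouse CD4 T cells at 2 h of restimulation, to ask for which transcripts the effect of both losses differed from the sum of the separate effects. The quantity is the interaction (TKO - DKO) - (KO - WT) on the log2 scale, where 0 means that the fold changes of the 2 losses multiply. It was computed from the 16 libraries at 2 h, 4 in each of 4 groups, of 64 libraries in the whole series, and the rule that picks these libraries uses labels alone.

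The libraries measure total RNA of CD4 T cells from spleens of the C57BL/6J strain, all carrying Cd4-Cre-ERt2, a Cre recombinase made in Cd4-expressing cells and active once 4-OH-tamoxifen is present. TKO cells were Rc3h1/2 fl/fl and Zc3h12a fl/fl, DKO cells were Rc3h1/2 fl/fl, KO cells were Zc3h12a fl/fl, and WT cells had Cd4-Cre-ERt2 without floxed alleles. Cells of every genotype went through tamoxifen treatment, 40 h of anti-CD3/28 activation under Th1 conditions and 2 days in IL-2 medium, before anti-CD3/28 was given again for 2 h. No label states that the 4 libraries of a group come from separate mice or cultures. The p-values given here therefore rest on library-to-library spread, part or all of which may be technical. A lower value in such a bulk sample can mean fewer cells of a type or less RNA per cell, and these cannot be told apart.

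Roquin-1 and Roquin-2 (Rc3h1, Rc3h2) are RNA-binding proteins that recognise short stem-loops in 3′ untranslated regions and recruit the deadenylation and decapping machinery. Regnase-1 (Zc3h12a) is an endonuclease that cuts many of the same mRNAs, and in T cells it is itself cleaved after antigen receptor signalling. Their shared targets include mRNAs of costimulatory receptors, NF-kappaB regulators and cytokines, and T cells that lack either protein become activated too readily. Each loss is therefore known to raise overlapping sets of transcripts, which makes the combined loss a test of how the effects combine.

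Hairpins with a loop of 3 bases are the element that both proteins are known to bind, and 1 or 2 of each of 4 known targets are shown beside those of 3 genes called below. Each sequence is 13 bases of the transcript strand from GENCODE M21 on GRCm38, with the 3-base loop in capitals and a stem of 5 pairs on either side.
Prickle1, chr15:93500039-93500051, minus strand: aacacTGTgtgtt
Nek7, chr1:138486723-138486735, minus strand: tagacTGTgttta
Synpo2, chr3:123112175-123112187, minus strand: gtatcTGTgatat
Tnf, chr17:35199586-35199598, minus strand: ttttcTGTgaaaa
Icos, chr1:60999487-60999499, plus strand: atttcTGTgaaat
Nfkbid, chr7:30428403-30428415, plus strand: atttcTGTgaaat
Nfkbid, chr7:30428431-30428443, plus strand: gtttcTGTgaaac
Nfkbiz, chr16:55812615-55812627, minus strand: gtttcTATgaaac
The search took loops TAT or TGT with 5 paired bases on each side, G with T allowed as a pair, on the transcript strand alone, and the 8 shown have at least 4 Watson-Crick pairs. Such a hairpin lay in the first 500 bases of the 3′ untranslated region in 1969 of 10183 genes with a region of that length (19.3%). Of the 25 genes called non-additive below, 20 had such a region and 5 of those held a hairpin in it, namely Prickle1, Nek7, Synpo2, Rnf145 and March8. Those of Rnf145 and March8 in these bases have only 3 Watson-Crick pairs and are not shown. The hairpins shown for Tnf and Icos lie past the first 500 bases. So do hairpins of at least 4 such pairs in the called genes Etv1, Shisa3, Zcchc18 and March8, which are not shown. With at least 4 such pairs required within the first 500 bases, 3 of the 20 called genes and 1068 of all (10.5%) held one. These shares are close to those over all genes, and a match of letters is not a measured binding site.

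The targeted genes were read first. Rc3h1 averaged 791 ± 56.5 normalized counts in TKO libraries, 772 ± 44.3 in DKO, 1581 ± 62.4 in KO and 1419 ± 184 in WT (SD, n = 4 each), so the libraries with floxed Rc3h1/2 lay below all others. Zc3h12a averaged 437 ± 44.2 in TKO, 1200 ± 276 in DKO, 490 ± 70.6 in KO and 792 ± 301 in WT (SD, n = 4 each), and it fell by 0.79 on the log2 scale in TKO against WT (limma adjusted p = 0.00083). Its KO effect against WT was -0.63 (limma adjusted p = 0.033), and the KO libraries overlapped WT. In resting cells Zc3h12a was not lower in KO (122 normalized counts) or TKO (148) than in WT (95.2). Rc3h2 averaged 996 ± 114 in TKO, 834 ± 110 in DKO, 955 ± 78.2 in KO and 772 ± 83.4 in WT (SD, n = 4 each), and its total RNA did not separate the floxed groups. Counts over a whole gene include exons outside the deleted part. These values therefore check the label of Rc3h1, check that of Zc3h12a only weakly, and say nothing of Rc3h2 protein. The libraries at 2 h held 6601694 to 10931452 reads. Genes without a read made up 15.9 to 19.2% of the table in TKO libraries, 11.7 to 14.6% in DKO, 12.5 to 17.6% in KO and 7.36 to 15.6% in WT. The 10 CD4 T cell markers, such as Cd3e and Lck, summed to 991 to 1060 CPM in TKO, 993 to 1180 in DKO, 1050 to 1110 in KO and 968 to 1070 in WT libraries. The 8 B cell markers summed to 97.2 to 186 CPM in TKO, 63.8 to 79 in DKO, 70.2 to 103 in KO and 43.8 to 79.2 in WT, nearly all of it Ighm, while Ms4a1 averaged below 0.5 CPM in every group. The 6 stromal and endothelial markers summed to 147 to 278 CPM in TKO, 51.6 to 83.5 in DKO, 157 to 280 in KO and 56.3 to 78.8 in WT, nearly all of it Pecam1. The 7 myeloid markers summed to 52 to 69.3 CPM in TKO, 38.2 to 51.1 in DKO, 51.1 to 69.1 in KO and 34.5 to 47.9 in WT, mostly Ctss, with Lyz2 at or near 0 in every group. The CD8 markers Cd8a and Cd8b1 summed to 9.81 to 17.3 CPM in TKO, 5.8 to 9.33 in DKO, 3.94 to 45.2 in KO and 5.95 to 18.7 in WT. Dendritic cell markers summed to 14 to 26.4 CPM in TKO, 8.27 to 24.7 in DKO, 8.77 to 14.5 in KO and 11.2 to 15.6 in WT. Natural killer and erythroid markers summed to at most 3.51 CPM in any library. The part of these differences in the results below was not tested. Of all genes, TKO against DKO passed in 6.83% (3.32% higher, 3.51% lower) and TKO against KO in 11.6% (7.01% higher, 4.57% lower). Against WT, 36.5% passed in TKO (20% higher, 16.5% lower), 9.47% in DKO (7.97% higher, 1.51% lower) and 5.88% in KO (4.65% higher, 1.23% lower). The interaction is built from these same libraries, so counts of called genes in these comparisons below describe them and nothing is read from the counts.

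The combined loss departed from the sum of the separate effects in few transcripts. Of 16140 genes tested, 25 were called at an adjusted p under 0.05 (0.155%), 11 higher than the sum (0.0682%) and 14 lower (0.0867%). With the deposited scaling in place of TMM, which shifted the median interaction by 0.14, the split was 18 higher and 8 lower. At an unadjusted p under 0.05 there were 1095 genes, 343 higher and 752 lower, where 807 genes are 5% of those tested. The median interaction over all genes was -0.0903, with quartiles of -0.29 and 0.13. With the deposited scaling the median was 0.0489, so its sign depends on the scaling. The 343 higher and 752 lower genes were counted under TMM alone, and no general lean below the sum is read from them. For 8635 genes (53.5%) the 95% interval lay within 1 log2 unit of the sum, and among the 7883 genes with a mean of at least 100 normalized counts at 2 h this held for 6826 (86.6%). In that well-measured set, 71 genes had an interaction of at least 1 in size and 14 of these were called. A gene that was not called is not thereby shown to be additive, and the median SE of the interaction was 0.326. Of 50 simulated interactions of each size, the same procedure on 16140 genes recovered 54% of those of 1, 66% of those of -1, 86% of those of 2 and 98% of those of -2, with 12 false calls. The changed genes were drawn from those with a simulated 2 h mean of at least 50, so the rates do not cover weaker genes. More interactions were simulated than were called in the data, which eases the adjusted threshold, so recovery in the data may be lower. Simulated libraries were drawn independently of each other, which the real ones may not be, so false calls and recovery may also differ for that reason.

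**Figure D1:**
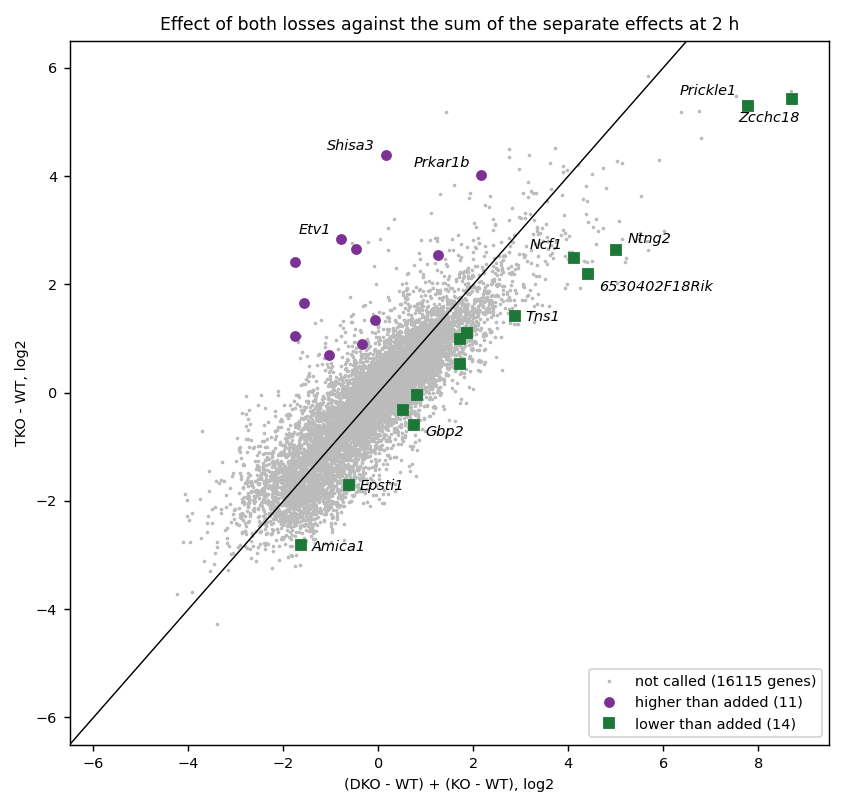
Each point is 1 of 16140 genes; the x axis is the sum of the DKO and KO effects against WT and the y axis the TKO effect against WT, both in log2 units at 2 h, and the diagonal marks a sum that is met. The 11 genes called higher lie above the line with sums near or below 0 for most, and Prickle1 and Zcchc18 lie far to the right and below it.

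Shisa3, a membrane adaptor known to dampen Wnt and FGF signalling, showed the largest departure upwards. It had 333, 567, 537 and 227 normalized counts in the 4 TKO libraries, against 5.83, 24.5, 16.9 and 29.5 in DKO, 12.9, 21.1, 28.2 and 26.1 in KO, and 14.6, 9.51, 23.7 and 29.3 in WT. Every TKO library stood above every other library, and the DKO, KO and WT libraries overlapped. Shisa3 RNA was 18.8-fold above the sum of the separate effects, an interaction of 4.23 ± 0.77 (SE; adjusted p = 0.0019), while neither single loss passed the test against WT (adjusted p = 0.94 for DKO and 0.85 for KO). The gene lies on chromosome 5 at 67607882-67623552 on the plus strand, and its exons overlap those of Atp8a1 on the other strand. Atp8a1, a lipid flippase gene, averaged 578 ± 13.6 normalized counts in TKO, 496 ± 23.9 in DKO, 420 ± 18.4 in KO and 409 ± 74 in WT (SD, n = 4 each), with an interaction of 0.17 ± 0.18 (SE; adjusted p = 0.95). The strand setting of the counting is not given in the sources used here, so reads of the pair cannot be told apart.

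Etv1, an ETS-family transcription factor gene, had the lowest adjusted p among the genes called higher. Its values were 144, 102, 164 and 128 normalized counts in TKO, against 8.75, 14.5, 10.8 and 7.36 in DKO, 32.1, 15.2, 11 and 17 in KO, and 23.3, 23.1, 9.19 and 19.5 in WT. No other library reached the lowest TKO library, and Etv1 in DKO and KO overlapped WT. TKO cells held 12.3 times the RNA that the 2 effects add to, with an interaction of 3.62 ± 0.47 (SE; adjusted p = 1.3e-06).

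Prkar1b, which encodes a regulatory subunit of protein kinase A, rose with Regnase-1 loss and rose further with both. TKO libraries had 810, 718, 930 and 967 normalized counts, against 48.4, 108, 63.8 and 49.4 in DKO, 228, 178, 296 and 103 in KO, and 53.3, 50.2, 44.8 and 57.3 in WT. KO lay above WT without overlap, DKO overlapped WT, and TKO lay above all. The log2 effect against WT was 4.03 in TKO (adjusted p = 6.6e-19), 0.31 in DKO (adjusted p = 0.47) and 1.85 in KO (adjusted p = 3.7e-07). The interaction was 1.86 ± 0.36 (SE; adjusted p = 0.0039), and it lost its call only where the fit was limited to the 16 libraries at 2 h (adjusted p = 0.087).

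Pkp4, an armadillo-repeat protein gene of cell junctions, was the most abundant gene of this kind. It had 1963, 2770, 3448 and 2317 normalized counts in TKO, against 969, 1239, 1163 and 1071 in DKO, 1468, 1500, 1167 and 1294 in KO, and 1374, 1171, 1630 and 1365 in WT. The TKO libraries stood above the rest, and DKO, which had the lowest mean, overlapped KO and WT. Its interaction was 1.24 ± 0.23 (SE; adjusted p = 0.0019), and both single effects were negative without passing (-0.31 in DKO, -0.03 in KO).

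Synpo2, an actin-binding protein gene, had 132, 488, 188 and 128 normalized counts in TKO, against 20.5, 29.1, 22.9 and 33.6 in DKO, 22.6, 30.5, 27 and 24.6 in KO, and 28.1, 24.5, 26.4 and 48.7 in WT. The TKO libraries stood apart from all others, with 1 of them far above the other 3. Its interaction was 3.12 ± 0.65 (SE; adjusted p = 0.013), and without that highest TKO library it was 2.69 with an adjusted p of 0.077, and with limma voom on recovered reads the adjusted p of Synpo2 was 0.10. Abcc3, an efflux transporter gene of the ABC family, averaged 38.9 ± 9.13 in TKO, 5.11 ± 2.75 in DKO, 9.14 ± 3.75 in KO and 13.9 ± 11.5 in WT (SD, n = 4 each), with an interaction of 3.22 ± 0.64 (SE; adjusted p = 0.0069) that lost its call in the 16 libraries at 2 h alone (adjusted p = 0.087). One WT library of Abcc3 at 31 normalized counts lay near the TKO range, which began at 33.7.

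Lmna, the lamin A/C gene of the nuclear envelope, averaged 812 ± 154 normalized counts in TKO, 280 ± 43 in DKO, 164 ± 19.9 in KO and 140 ± 32.8 in WT (SD, n = 4 each), and is the only gene called higher that rose with Roquin loss alone. March8, a membrane ubiquitin ligase gene, averaged 68.7 ± 7.95 in TKO, 22.7 ± 6.36 in DKO, 29.8 ± 2.34 in KO and 26.6 ± 4.39 in WT. Pou2f3, a POU-domain factor gene known from tuft cells, averaged 53.7 ± 21.5 in TKO, 14.2 ± 6.04 in DKO, 13.3 ± 8.28 in KO and 23.8 ± 5.39 in WT. Pde2a, a cyclic nucleotide phosphodiesterase gene, averaged 290 ± 56.2 in TKO, 100 ± 28.8 in DKO, 159 ± 40.9 in KO and 179 ± 35 in WT, and fell with Roquin loss alone (adjusted p = 0.039). In these 4 genes the TKO mean was the highest, and the interactions were 1.28 for Lmna, 1.42 for March8, 2.80 for Pou2f3 and 1.73 for Pde2a (adjusted p = 0.032, 0.016, 0.028 and 0.033). Their calls were among the less firm ones: with 1 library at a time left out, the call held in 6 of 16 fits for Lmna, 14 for March8, 8 for Pou2f3 and 5 for Pde2a, with an adjusted p of at most 0.13 (0.14 for Pou2f3 and 0.13 for March8 in the 16 libraries at 2 h alone). For March8 the 2 fits that lost it left out the first DKO library (adjusted p = 0.078) and the third WT library (0.054). Exons of Pde2a overlap those of Arap1 on the same strand, and Arap1 had an interaction of 0.03 ± 0.19 (SE; adjusted p = 0.99).

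Lcn2, which encodes a siderophore-binding lipocalin, was called although it was near the limit of detection. It had 17.4, 3.89, 27.1 and 10.4 normalized counts in TKO, against 0 in all 4 DKO libraries, 0, 3.55, 1.2 and 0 in KO, and 0.966, 1.36, 2.61 and 1.18 in WT. The fitted interaction of 4.17 ± 0.86 (SE; adjusted p = 0.012) depends on the pseudocount because DKO is at 0, and over the alternatives it ran from 1.93 to 5.40. The call of Lcn2 was lost with limma voom on recovered reads (adjusted p = 0.11), in the 16 libraries at 2 h alone (0.076) and without the third TKO library (0.065).

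Across the 11 genes called higher, TKO lay above DKO without overlap in 11, above KO in 9 and above WT in 9. A positive interaction itself favours such gaps, and their share over all genes was not counted, so nothing is read from them. TKO passed against WT in 10 of the 11, which the choice of genes by the interaction favours. Neither single loss passed against WT in 8 of them. On the linear scale all 11 lay above the sum by over 2 SE. That departure comes from the libraries that chose the genes, so it is a description and no further support.

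**Figure D2:**
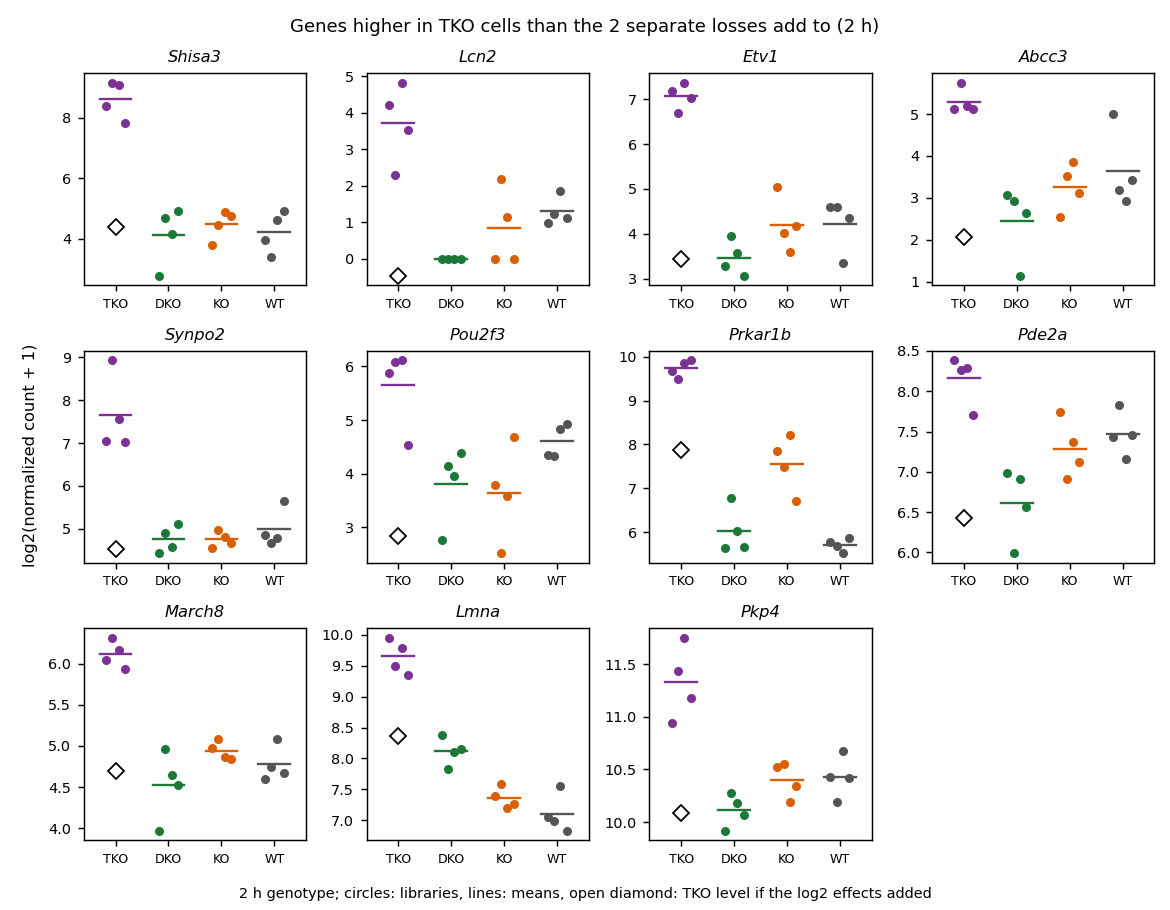
Log2(normalized count + 1) of the 11 genes called higher at 2 h, by genotype; circles are the 4 libraries, lines their means, and the open diamond the TKO level at which the log2 effects would add. In each panel the TKO mean lies above the diamond and above the means of DKO, KO and WT; for Shisa3 the TKO libraries range from 227 to 567 normalized counts.

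Of the 14 genes called lower than the sum, 9 rose against WT in both DKO and KO, and TKO rose against WT in the same 9, but by less than the sum of the separate log2 effects. In 5 of these 9, Nek7, Rnf145, Ncf1, 6530402F18Rik and Ntng2, TKO passed the test against neither DKO nor KO. A p that misses the threshold does not show equal levels. A negative interaction itself favours high DKO and KO and low WT values, so the 9 is a description.

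Prickle1, a planar cell polarity gene and a known target of the 2 proteins in the list used here, had the largest gain in normalized counts among the 25. It had 3881, 3833, 5232 and 6351 normalized counts in TKO, against 904, 1211, 1098 and 874 in DKO, 3402, 2988, 3615 and 2714 in KO, and 86.3, 95, 157 and 158 in WT. The 4 groups did not overlap, and Prickle1 stood highest in TKO and lowest in WT, although TKO against KO did not pass (adjusted p = 0.091). The log2 effects against WT were 5.29 in TKO, 3.07 in DKO and 4.71 in KO, so the 2 single effects sum to 7.79. Prickle1 was therefore below the sum by -2.49 ± 0.32 (SE; adjusted p = 1.4e-06), which is 0.177 of the level that multiplied fold changes give. On the linear scale Prickle1 met the sum of increments within 2 SE, with 4824 normalized counts observed against 4077 and a difference of 746 ± 642 (SE). Its gene lies on chromosome 15 at 93499114-93595891 on the minus strand, and its hairpin starts 396 bases after the stop codon in a 3′ untranslated region of 1333 bases.

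Ntng2, which encodes the membrane-anchored netrin-G2, and 6530402F18Rik overlap on the same strand of chromosome 2 at 29194541-29253005 and 29245107-29253006, so they may share reads and count as 1 locus. Ntng2 had 1018, 907, 1091 and 1749 normalized counts in TKO, against 828, 937, 837 and 974 in DKO, 1373, 986, 1512 and 1177 in KO, and 204, 146, 177 and 221 in WT. 6530402F18Rik had 1165, 961, 1098 and 1557 in TKO, against 976, 1086, 1019 and 990 in DKO, 1507, 1364, 1625 and 1206 in KO, and 279, 232, 256 and 268 in WT. At this locus TKO overlapped both DKO and KO, and all 3 stood above WT. The interaction was -2.38 ± 0.24 for Ntng2 (SE; adjusted p = 3.9e-10) and -2.24 ± 0.20 for 6530402F18Rik (SE; adjusted p = 5.9e-12), the lowest adjusted p of all genes. On the linear scale Ntng2 lay below the sum by -778 ± 225 normalized counts (SE).

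Zcchc18, a zinc-finger protein gene, had 141, 188, 168 and 126 normalized counts in TKO, against 67.4, 67, 54.2 and 63 in DKO, 90, 63.2, 88.3 and 104 in KO, and 1.93, 8.15, 5.33 and 0 in WT. It was nearly absent from WT, and its TKO libraries lay above all others. The interaction of -3.29 ± 0.48 (SE; adjusted p = 1.7e-05) was the largest in the lower direction. Over the alternatives it ran from -3.74 without the second WT library to -2.21 with a pseudocount of 5, and in the 16 libraries at 2 h alone the adjusted p was 0.074. On the linear scale Zcchc18 met the sum within its error (10.2 ± 16.6 normalized counts, SE). It overlaps Slc25a53, which averaged 110 ± 5.12 in TKO, 96.5 ± 6.01 in DKO, 125 ± 14.2 in KO and 67.2 ± 8.67 in WT (SD, n = 4 each) with an interaction of -0.69 (adjusted p = 0.41).

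Ncf1, which encodes the p47phox subunit of the phagocyte NADPH oxidase, had 276, 202, 247 and 261 normalized counts in TKO, against 167, 186, 166 and 156 in DKO, 220, 174, 222 and 166 in KO, and 36.8, 54.2, 37 and 45.1 in WT. TKO lay above DKO, overlapped KO, and all 3 lay above WT. The interaction of Ncf1 was -1.62 ± 0.27 (SE; adjusted p = 0.00037). Its exons overlap Gtf2ird2 on the other strand, which had 36% as many reads and an interaction of -0.13 ± 0.245 (SE; adjusted p = 0.98).

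Gimap3, a gene of the GIMAP family of lymphocyte GTPases, had 390, 378, 406 and 425 normalized counts in TKO, against 473, 410, 461 and 520 in DKO, 571, 466, 563 and 552 in KO, and 226, 304, 278 and 299 in WT. All TKO libraries lay between WT and KO without overlap, and TKO overlapped DKO. Its interaction was -1.18 ± 0.19 (SE; adjusted p = 0.00024), and TKO fell against KO (-0.42, adjusted p = 0.031). The paralog Gimap5 had an interaction of -0.73 ± 0.29 (SE; adjusted p = 0.54), and reads could be split between the pair by the counting. Tns1, the actin-linking tensin gene, averaged 1200 ± 372 in TKO, 815 ± 146 in DKO, 1726 ± 267 in KO and 442 ± 109 in WT (SD, n = 4 each), with an interaction of -1.45 (adjusted p = 0.0018, and 0.054 in the 16 libraries at 2 h alone). Nek7, a kinase gene known for the NLRP3 inflammasome, averaged 1916 ± 153 in TKO, 1587 ± 36.9 in DKO, 1915 ± 91.8 in KO and 962 ± 79.8 in WT. Rnf145, a ubiquitin ligase gene of the endoplasmic reticulum, averaged 1035 ± 110 in TKO, 1029 ± 93.9 in DKO, 839 ± 124 in KO and 484 ± 59.6 in WT. The interaction was -0.73 for Nek7 and -0.78 for Rnf145 (adjusted p = 0.024 and 0.032), and with 1 library left out the call held in 11 and 7 of 16 fits. With the deposited scaling the adjusted p was 0.14 for Nek7 and 0.18 for Rnf145.

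TKO fell against WT in 4 of the 14 genes, namely Gbp2, Amica1, Epsti1 and Arid3b. Gbp2, an interferon-inducible guanylate-binding protein gene, had 1752, 2326, 1780 and 2323 normalized counts in TKO, against 3384, 2726, 2751 and 3824 in DKO, 4099, 4644, 5106 and 6860 in KO, and 2616, 3241, 3255 and 3209 in WT. TKO lay below every other library and KO above every other. Against WT the log2 effect on Gbp2 was -0.60 in TKO (adjusted p = 0.0094), 0.03 in DKO (adjusted p = 0.94) and 0.73 in KO (adjusted p = 0.011), and the interaction was -1.36 ± 0.26 (SE; adjusted p = 0.0051). Roquin loss thus lowered Gbp2 in cells without Regnase-1 (TKO against KO, -1.33, adjusted p = 1.4e-06), while it did not pass in cells with Regnase-1.

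Amica1, which encodes the junctional adhesion molecule JAML, had 208, 249, 172 and 194 normalized counts in TKO, against 948, 1146, 781 and 885 in DKO, 802, 693, 860 and 592 in KO, and 1496, 1338, 1193 and 1854 in WT. TKO lay below all others and WT above all others. Amica1 fell in each single loss, and fell by 2.82 in TKO against WT on the log2 scale (adjusted p = 4.1e-18), with an interaction of -1.19 ± 0.26 (SE; adjusted p = 0.024) that was called in 10 of the 16 fits that left out 1 library. The call of Amica1 was lost with the deposited (adjusted p = 0.11), median-of-ratios (0.065) and upper-quartile (0.17) scalings and with a filter of 5 CPM (0.066). On the linear scale the TKO mean met the sum (-0.807 ± 173 normalized counts, SE). Epsti1, an interferon-inducible gene of epithelial-stromal interaction, averaged 294 ± 79.4 in TKO, 714 ± 98.5 in DKO, 806 ± 142 in KO and 937 ± 102 in WT (SD, n = 4 each), and fell in TKO against WT (-1.70, adjusted p = 2.5e-11) with neither single loss passing. Its interaction of -1.08 (adjusted p = 0.033) was called in 9 of 26 alternatives and lost under all 3 other scalings (adjusted p = 0.065 to 0.12).

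Slfn2, a Schlafen gene known to keep T cells quiescent, had 3530, 3705, 3200 and 3769 normalized counts in TKO, against 5182, 4926, 4835 and 6013 in DKO, 3772, 4140, 5112 and 5127 in KO, and 3243, 3683, 3585 and 4195 in WT. TKO overlapped WT and lay below DKO and KO, and Slfn2 rose in DKO (0.51, adjusted p = 0.0056). Arid3b, a DNA-binding ARID-domain gene, averaged 333 ± 67.2 in TKO, 391 ± 50 in DKO, 631 ± 40.7 in KO and 412 ± 22.3 in WT (SD, n = 4 each), and rose in KO (0.61, adjusted p = 0.0017) but fell in TKO (-0.33, adjusted p = 0.047). Both had an interaction of -0.86 (adjusted p = 0.017 for Slfn2 and 0.024 for Arid3b), called in 19 and 15 of 26 alternatives, with the deposited scaling among those that lost both (adjusted p = 0.093 for Slfn2 and 0.11 for Arid3b). On the linear scale 11 of the 14 genes lay below the sum by over 2 SE, and Amica1, Prickle1 and Zcchc18 did not. The same libraries chose the genes, so the 11 is a description.

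**Figure D3:**
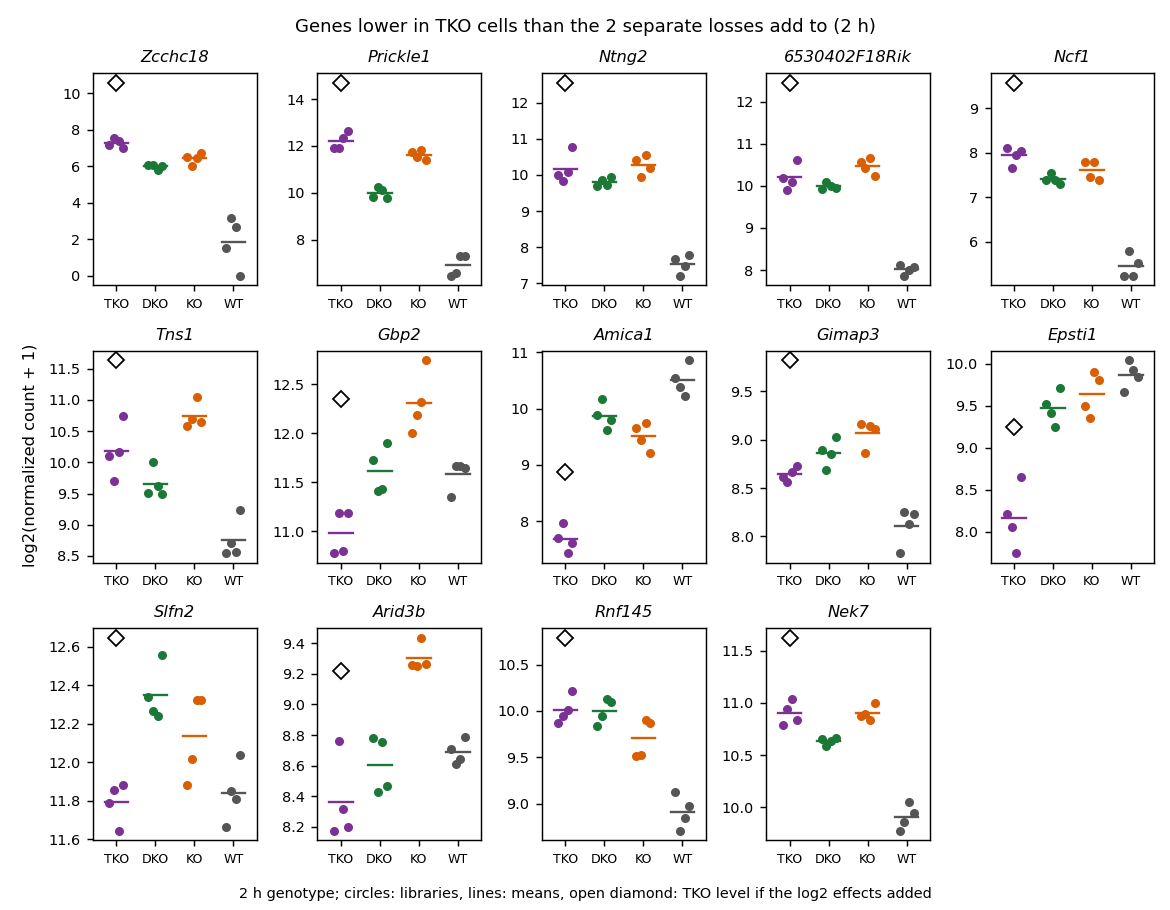
Log2(normalized count + 1) of the 14 genes called lower at 2 h, by genotype; circles are the 4 libraries, lines their means, and the open diamond the TKO level at which the log2 effects would add. In each panel the TKO mean lies below the diamond; for Gbp2, Amica1, Epsti1, Arid3b and Slfn2 it is the lowest of the 4 means, and for Ntng2 it lies between those of DKO and KO.

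The known targets of Roquin and Regnase-1 other than Prickle1 were not called. Of 21 listed targets tested, 1 was lower and none higher, and their median interaction was -0.29, against -0.0903 over all genes. Icos, the costimulatory receptor gene first tied to Roquin, had 7004, 3490, 7048 and 7809 normalized counts in TKO, against 2883, 3445, 3123 and 1550 in DKO, 5954, 4544, 5186 and 2330 in KO, and 961, 1023, 482 and 1087 in WT. The 3 knockout groups lay above WT, TKO lay above DKO, and TKO overlapped KO. The interaction of Icos was -1.12 ± 0.56 (SE; adjusted p = 0.74; 95% interval -2.25 to 0.00), and on the linear scale TKO met the sum within its error (-27.5 ± 1320 normalized counts, SE).

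Ctla4, an inhibitory receptor gene, rose in TKO (3.05), DKO (1.85) and KO (1.60) against WT (adjusted p = 1.3e-07, 0.0022 and 0.013), and its interaction was -0.40 ± 0.59 (SE; adjusted p = 0.97). One DKO library of Ctla4 at 1719 normalized counts lay far above the other 3 at 401 to 604, and without it the interaction was 0.03. Nfkbiz, an atypical IκB gene, averaged 5258 ± 771 in TKO, 1727 ± 269 in DKO, 4718 ± 1424 in KO and 1761 ± 340 in WT (SD, n = 4 each). It rose with Regnase-1 loss and not detectably with Roquin loss, and its interaction of 0.21 ± 0.30 had a 95% interval of -0.38 to 0.81 (adjusted p = 0.97). Nfkbid, its relative, had an interaction of -0.26 with an interval of -1.05 to 0.53 (adjusted p = 0.97). Rel, an NF-kappaB subunit gene, had -0.29 with an interval of -0.78 to 0.20 (adjusted p = 0.92). Tnfrsf4, the gene of the costimulatory receptor OX40, had -0.30 with an interval of -1.14 to 0.55 (adjusted p = 0.97). The intervals of Nfkbiz and Rel lie within 1 log2 unit of the sum, and those of Icos, Ctla4, Nfkbid and Tnfrsf4 do not.

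Among cytokine genes, Tnf had 3203, 6676, 2040 and 4010 normalized counts in TKO, against 8679, 7551, 5418 and 14630 in DKO, 5018, 6138, 10050 and 21160 in KO, and 9216, 13270, 21700 and 14240 in WT. TKO lay below WT without overlap, while DKO and KO overlapped both TKO and WT. Tnf fell in TKO against WT by 1.94 on the log2 scale (adjusted p = 1.5e-05), and its interaction of -0.59 ± 0.485 did not pass (SE; adjusted p = 0.91). Il2 had an interaction of -0.27 ± 0.73 (SE; adjusted p = 0.98), and without the fourth KO library it was 0.03. Il6, near the limit of detection with group means of 15.1 in TKO, 5.31 in DKO, 7.75 in KO and 2.16 in WT, had 1.35 ± 1.06 (SE; adjusted p = 0.90). Irf4, a lineage factor gene of activated T cells, had -0.64 ± 0.295 (SE; adjusted p = 0.68). For Otud3, a deubiquitinase gene, TKO averaged 190 ± 56.5, DKO 70.1 ± 8.02, KO 68.9 ± 13.2 and WT 58.9 ± 20 (SD, n = 4 each). TKO rose against WT (1.67, adjusted p = 8.1e-09) and neither single loss passed, but the interaction of 1.12 ± 0.30 did not pass at 2 h (SE; adjusted p = 0.14), though it did without the second TKO library of Otud3 (1.34, adjusted p = 0.026). Among genes with a 2 h mean of at least 20 in any group, Lgr4, an R-spondin receptor gene, missed the threshold by the least in the higher direction (1.71 ± 0.415 (SE), adjusted p = 0.074). All 4 TKO libraries of Lgr4, at 102 to 239, lay above the DKO, KO and WT libraries at 21 to 55.2. Lgr4 passed in 4 alternatives (adjusted p = 0.023 to 0.033), namely with the deposited scaling, with a pseudocount of 5, without the first TKO library and without the second DKO library.

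Other gene lists held almost no called gene. In the interferon list, Gbp2 was called lower among 25 genes tested, and in the same list Ifitm1 (2.13 ± 0.52, adjusted p = 0.082) and Ifitm3 (1.74 ± 0.43, adjusted p = 0.096), membrane antiviral genes, lay on the other side without passing. Ifitm3 averaged 77.9 in TKO, 61.9 in DKO, 143 in KO and 393 in WT, so its TKO level was near that of DKO. No member was called in the lists of follicular helper genes (13 tested, median -0.777), Th1 genes (12, -0.578), cytokine receptors (25, -0.509), costimulatory receptors (15, -0.424) and glycolysis (19, -0.363). Nor was any called among genes of the amino acid stress response (20, 0.179), cell cycle (24, 0.124) and cholesterol synthesis (17, 0.199). These medians read against -0.0903 over all genes, and their differences from it moved by at most 0.01 under the other scalings. A change of scaling shifts nearly all genes alike, so these differences could hardly move and lend the list medians no support. In the follicular helper list, Slamf6, a receptor gene of lymphocyte contact, averaged 2820 ± 231 in TKO, 3074 ± 220 in DKO, 1636 ± 289 in KO and 704 ± 327 in WT (SD, n = 4 each), with an interaction of -1.42 (adjusted p = 0.11).

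Libraries of the other times, which the definition of the 2 h interaction does not use, gave the same quantity 3 more times. Of the 25 genes called at 2 h, 23 had the same sign at 0 h, 24 at 1 h and 25 at 4 h, where 53.2, 61.1 and 63.7% of all genes did. All 3 other times had the same sign in 22 of 25, against 23.3% of all genes. At each of 0, 1 and 4 h, 13 of the 25 were also called, where of all genes 0.843% were called at 0 h (0.719% higher, 0.124% lower), 0.26% at 1 h (0.136% higher, 0.124% lower) and 0.167% at 4 h (0.0867% higher, 0.0805% lower). Etv1, Prkar1b, Gimap3 and Zcchc18 were called at all 4 times, and 5 genes at 2 h alone, namely Abcc3, Pou2f3, March8, Rnf145 and Arid3b. The interaction of these 5 did not differ detectably between times by limma's F-test (adjusted p = 0.38 to 0.95), so they are not shown to be particular to 2 h. Whether libraries of different times come from the same cultures is not given, so the times may not be independent.

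Etv1 averaged 114 ± 31.2, 206 ± 84.1, 134 ± 25.8 and 44.3 ± 8.97 normalized counts in TKO at 0, 1, 2 and 4 h, against 30.3 ± 10.5, 19.3 ± 6.25, 18.8 ± 6.61 and 17 ± 2.93 in WT (SD, n = 4 each). Its interaction was 2.16 at 0 h, 2.77 at 1 h, 3.62 at 2 h and 2.49 at 4 h. Prkar1b averaged 381 ± 89.4, 600.5 ± 155, 856 ± 114 and 422 ± 45.4 in TKO at the 4 times, against 85.5 ± 21.8, 43.6 ± 11.1, 51.4 ± 5.27 and 47.2 ± 5.58 in WT, with interactions of 2.20, 2.77, 1.86 and 2.07. Both genes stood above the sum before and after restimulation.

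The interaction differed between times in 9 of 16140 genes (0.0558%) by an F-test, with 1100 at an unadjusted p under 0.05, and 3 of the 9 were called at 2 h. For Prickle1 (F-test adjusted p = 0.00058) the interaction was 0.35 at 0 h, -2.06 at 1 h, -2.49 at 2 h and -2.54 at 4 h. In resting cells Prickle1 averaged 1838 ± 427 normalized counts in TKO, 255 ± 70.7 in DKO, 628 ± 113 in KO and 109 ± 24.8 in WT (SD, n = 4 each). At 0 h the departure of Prickle1 did not pass (adjusted p = 0.71), and from 1 h on it was called lower. Ntng2 (F-test adjusted p = 0.0047) had -0.74 at 0 h, -2.70 at 1 h, -2.38 at 2 h and -1.47 at 4 h, and the overlapping 6530402F18Rik (F-test adjusted p = 0.0064) followed it with -0.59, -1.89, -2.24 and -1.42. Fnip2, a folliculin-interacting protein gene, had 1.15 at 0 h, 1.20 at 1 h, -0.05 at 2 h and -0.67 at 4 h (F-test adjusted p = 0.0081). Its interaction passed at 0 h and 1 h (limma adjusted p = 0.014 and 0.022) but not at 4 h (0.47), so a departure below the sum is not shown. Ybx3, a cold-shock domain RNA-binding protein gene, and St7 likewise stood above the sum at 0 h (0.95 and 1.16) and did not pass at 2 h (-0.21 and 0.60; F-test adjusted p = 0.031 and 0.044).

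Genes raised by each single loss could be chosen on libraries of other times and then read at 2 h. Such a choice favours high DKO and KO and low WT values, which lower the interaction. If libraries of different times share cultures, which is not given, that can carry over to 2 h, and this was not tested. The 155 genes raised by both DKO and KO at 0 h had a median interaction of -0.488 at 2 h, with 136 below 0 and 7 called lower. The 209 genes raised by both at 1 h had -0.446, with 179 below 0 and 10 called lower. The 615 genes raised by both at 4 h had -0.185, with 444 below 0, 9 called lower and 1 called higher. Over all genes the median was -0.0903 and 62.2% lay below 0 under TMM, with 0.0867% called lower and 0.0682% called higher. With the deposited scaling the median over all genes was 0.0489. The 3 sets may share genes. In the 209 genes of 1 h the median log2 effect at 2 h was 1.39 in TKO, 0.899 in DKO and 0.936 in KO against WT. Genes lowered by both single losses had median interactions of -0.0565 for the 19 of 0 h (12 below 0), 0.0435 for the 29 of 1 h (12 below 0) and 0.0585 for the 47 of 4 h (22 below 0), and none of them was called. The medians of the 3 raised sets kept their sign in every alternative, between -0.56 and -0.35 for 0 h, -0.50 and -0.30 for 1 h, and -0.22 and -0.04 for 4 h.

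**Figure D4:**
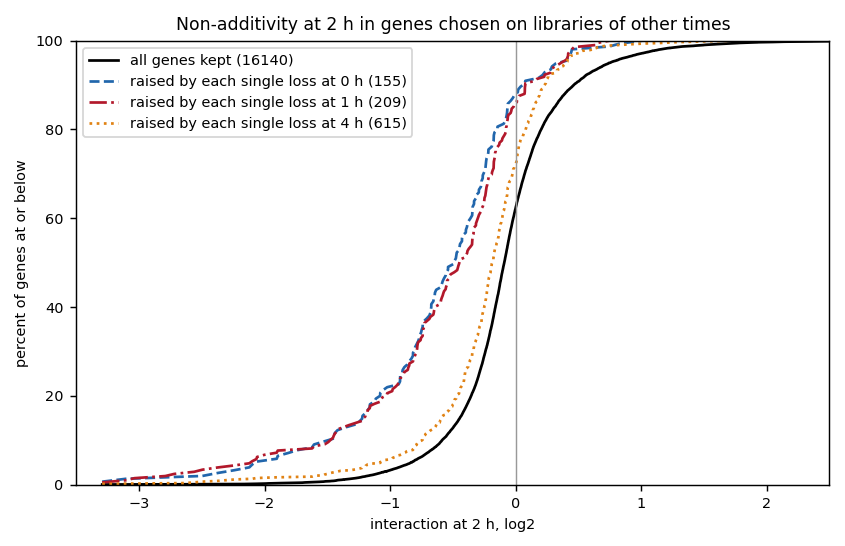
Percent of genes (y axis) at or below a given interaction at 2 h in log2 units (x axis), for all 16140 genes kept and for genes raised by each single loss at 0 h (155), 1 h (209) and 4 h (615). The curves for 0 and 1 h lie left of that for all genes, with medians of -0.488 and -0.446 against -0.0903.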

How the data were processed

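Per the labels' protocols, total RNA was taken up in Trizol and sequenced after a NuGEN Universal library preparation. Reads were placed on GRCm38, per the submitters' processing notes. The aligner, counter, annotation and strand setting were not given in the sources used here. The authors deposited 1 table of 23134 genes whose cells hold, for each group, a list of 4 normalized counts with no replicate number (an other kind of unit, since the lists are not single values). Low values are whole multiples of 1 step (100% whole within 0.1 read), which gave the reads per library.

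Lists were rescaled by TMM factors (30% and 5% trimming). Genes with at least 1.3 CPM (10 reads at the median depth of 7720312) in 4 or more libraries and 15 reads in all were kept. log2(value + 1) was fitted with limma 3.58.1 (trend and robust, R 4.3.3), with 1 mean for each of 16 groups over all 64 libraries (48 residual degrees of freedom). Tests were 2-sided, with Benjamini-Hochberg adjustment over 16140 genes. Fold changes on this scale understate the change of low genes. The linear departure is a difference of means with an SE from the group SDs and no test. The procedure was tested on simulated data. Libraries of a group differed by a chi-square of 9.94 to 50.8 per degree of freedom, so none was counted as a duplicate. Residual correlations between libraries of different genotypes at 2 h were -0.328 to 0.468, and -0.328 to 0.445 at the same place in the lists. The fit treats all libraries as independent, so any pairing among them is not in its SEs or p-values.

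Named genes are the 3 targeted genes, the 12 largest called interactions in each direction with a 2 h mean of at least 20, called list members, 13 genes of interest, fillers to 12 that did not pass, and the 6 with the lowest F-test p. Lcn2, Nek7 and Rnf145 were called outside that rule, and Slamf6, Ifitm1, Ifitm3 and the overlapping or paralogous genes were added after their values were seen. The genes, lists and tests were chosen with earlier results of these data known. Coordinates and sequences come from GENCODE M21, which held 22724 of the gene IDs.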

Additional observations from a re-analysis of the deposited data

Results flagged for a closer look

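In 15 of 172 pairs of a named gene and a 2 h group, 1 library lay far from the other 3, where chance alone flags about 1 in 20. Normalized counts are given. Abcc3 had 52.6 in 1 TKO library, against 33.7 to 35.3 in the others, and 31 in 1 WT library, against 6.58 to 9.73. Synpo2 had 488 in 1 TKO library, against 128 to 188, and 48.7 in 1 WT library, against 24.5 to 28.1. Lgr4 had 41.5 in 1 WT library, against 21.1 to 23.1. Il6 had 21.2 in 1 DKO library, with the other 3 at 0, and 19.6 in 1 KO library, against 3.04 to 4.79. Nfkbiz had 2130 in 1 DKO library, against 1570 to 1630, and Fnip2 had 438 in 1 WT library, against 220 to 250. Rc3h1 had 706 in 1 DKO library, against 787 to 802. Ctla4 had 2040 in 1 TKO library, against 1470 to 1530, 1720 in 1 DKO library, against 401 to 604, and 356 in 1 WT library, against 140 to 175. Arid3b had 692 in 1 KO library, against 607 to 615, and Gbp2 had 2620 in 1 WT library, against 3210 to 3260.

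The interaction differed between the 4 times by limma's F-test for 6 named genes, with adjusted p of 0.00058 for Prickle1, 0.0047 for Ntng2, 0.0064 for 6530402F18Rik, 0.0081 for Fnip2, 0.031 for Ybx3 and 0.044 for St7.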

How the results depend on the processing

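Of the 25 calls at 2 h, 9 held in every one of 26 alternatives, namely those of Gimap3, Gbp2, Shisa3, Etv1, 6530402F18Rik, Ntng2, Prickle1, Ncf1 and Pkp4, and 13 held with any 1 of the 16 libraries left out. The calls higher and lower than the sum numbered 18 and 8 with the deposited scaling, against 11 and 14, and 9 were lower with upper-quartile scaling. In the 16 libraries at 2 h alone there were 16 calls, 6 of them higher. The count of genes that differed between times was 21 with the deposited scaling and 4 with median-of-ratios or upper-quartile scaling, without a filter, with a filter of 5 CPM, and without trend and robust fitting, against 9. With 1 library left out, the calls ranged from 16 to 32, those higher from 7 to 13, those lower from 9 to 21 and those differing between times from 5 to 14. The 16 calls came without the third TKO library (7 higher, 9 lower), and 9 were lower without the third KO library too. Named interactions gave 1115 alternative values, of which 985 kept their direction and side of the threshold 113 no longer passed and 5 newly passed (Lgr4 in 4, Otud3 in 1). The sign turned for Fnip2 (0.09 deposited, 0.02 upper-quartile, 0.10 without the first TKO library, 0.05 and 0.03 without the first and second WT libraries), Rc3h2 (0.09 deposited, 0.02 upper-quartile, 0.02 without the second TKO and 0.04 without the second DKO library), Rc3h1 (0.01 deposited), Il2 (0.03 without the fourth KO library) and Ctla4 (0.03 without the second DKO library), none of which was called. With 1 library left out these ran from -0.28 to 0.10 for Fnip2, -0.12 to 0.04 for Rc3h2, -0.60 to 0.03 for Il2 and -0.73 to 0.03 for Ctla4. The cause was not tested. No paired analysis was possible because the deposited lists carry no replicate numbers. edgeR and DESeq2 on recovered reads were not run. With limma voom on those reads there were 26 calls, 23 of them shared. Depth limits Lcn2 and Il6, and with 4 libraries a group the median SE of 0.326 leaves interactions under 1 mostly undetected.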
